A study of Mus musculus with 7 samples.

Results

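The proteasome genes were taken as the genes whose symbol starts with Psm, a letter from a to g and a number, and which have at least 1 protein-coding transcript in the deposited tables. This rule on names, which uses no measured value, found 49 of 14093 genes with such a transcript. Of these, 7 encode the alpha ring and 7 the beta ring of the core, 5 encode inducible or tissue-specific core subunits, 6 encode the ATPases of the regulatory cap, 3 other subunits of the cap's base, 8 the cap's lid, 7 assembly factors, and 5 the alternative caps PA28 and PA200 and the inhibitor PI31. The remaining gene, Psmc3ip, matches by name only: it encodes an interaction partner of an ATPase subunit that acts in meiotic recombination. In 45 of the 49 genes the level reached 1 TPM in at least 3 libraries, and these were tested; Psma8, Psmb8, Psmb10 and Psmb11 did not reach it.

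The levels come from retinas of ICR mice, an outbred stock, explanted at embryonic day 17.5 and cultured for 2 days. Explants of both groups were electroporated with an EGFP plasmid, together with a second plasmid, either a control (control, n = 3 libraries) or one from which a hairpin RNA that silences Kmt2f is expressed (shKmt2f, n = 4). Kmt2f is another name of Setd1a, a methyltransferase of histone H3 lysine 4. EGFP-positive cells were sorted, so each library holds a mixture of the retinal cells that took up plasmid, and 1 ng of RNA went into cDNA synthesis. Whether different libraries are different animals is not stated in the labels, so every p-value below reflects the spread between libraries, part or all of which may be technical. Levels are given in TPM, the abundance of a transcript per base of its length as a share of its library. A gene's level is the sum over its protein-coding transcripts, which held from 1.04% to 100% of the gene's TPM. Ranks between genes below are therefore ranks of coding transcripts and may differ for whole genes.

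The 26S proteasome degrades proteins marked with ubiquitin. Its 20S core is a barrel of stacked rings: outer alpha rings form the gate, and inner beta rings hold the cutting sites, caspase-like in Psmb6, trypsin-like in Psmb7 and chymotrypsin-like in Psmb5. The 19S cap binds the ubiquitin chain, removes it and unfolds the protein with a ring of ATPases, and dedicated chaperones build the rings without becoming part of the finished particle. Within a core, and within a cap, the subunits are present in fixed proportion. In many cell types the genes of both parts are regulated together, through Nfe2l1 when proteasome activity is limiting.

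Promoter sequence is shown for 5 genes whose levels passed the test described below, 3 lower and 2 higher in shKmt2f. The sequences are from RefSeq on build GRCm38.p6, 5′ to 3′ on the gene's strand, and cover the part of the 250 bases before the RefSeq start that lies before the gene's first base in GENCODE M21. Capitals mark every match, on either strand, to the antioxidant response element core TGACNNNGC, which Nfe2l1 and related factors can bind, to the CCAAT box CCAAT, and to the GC box GGGCGG.
Psmb3 (chr11:97703184-97703398, plus strand): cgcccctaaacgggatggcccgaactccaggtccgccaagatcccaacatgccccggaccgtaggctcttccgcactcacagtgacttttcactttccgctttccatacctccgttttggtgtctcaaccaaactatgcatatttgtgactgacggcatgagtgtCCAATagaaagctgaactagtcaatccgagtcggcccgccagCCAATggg
Psmb5 (chr14:54618023-54618245, minus strand): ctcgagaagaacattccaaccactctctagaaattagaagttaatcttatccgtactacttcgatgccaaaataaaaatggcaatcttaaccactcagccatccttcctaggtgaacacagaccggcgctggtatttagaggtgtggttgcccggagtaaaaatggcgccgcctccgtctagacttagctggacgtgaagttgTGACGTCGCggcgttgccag
Psmg1 (chr16:95990961-95991210, minus strand): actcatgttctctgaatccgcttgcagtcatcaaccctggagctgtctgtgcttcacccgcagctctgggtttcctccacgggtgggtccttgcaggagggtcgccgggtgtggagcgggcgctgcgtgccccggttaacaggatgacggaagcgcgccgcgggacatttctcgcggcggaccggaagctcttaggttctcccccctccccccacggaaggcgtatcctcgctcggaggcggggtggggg
Psmc6 (chr14:45329574-45329787, plus strand): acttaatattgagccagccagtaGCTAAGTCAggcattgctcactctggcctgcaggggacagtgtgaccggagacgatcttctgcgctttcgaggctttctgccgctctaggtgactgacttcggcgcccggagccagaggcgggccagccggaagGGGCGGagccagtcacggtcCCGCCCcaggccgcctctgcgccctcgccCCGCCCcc
Psmd12 (chr11:107479278-107479483, plus strand): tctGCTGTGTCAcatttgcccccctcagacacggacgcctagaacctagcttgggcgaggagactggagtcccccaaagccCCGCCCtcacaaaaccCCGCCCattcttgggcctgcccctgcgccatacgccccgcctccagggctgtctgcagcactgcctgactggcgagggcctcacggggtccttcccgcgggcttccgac

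The Psmb3 window holds 2 CCAAT boxes, whose first bases lie 85 and 43 bases before the start. In Psmb5 an element core lies 47 bases before the start. Psmg1 holds none of the 3 motifs in its 250 bases. Psme1, the other lower gene, is not printed: its window of 250 bases lies wholly after the gene's first base in GENCODE M21. Over that window it holds 1 GC box, 109 bases before the RefSeq start. Of the 3 higher genes, Psmc6 holds an element core 227 bases and 3 GC boxes 93, 73 and 44 bases before the start. A further GC box, 32 bases before the start, lies outside the part printed. Psmd12 holds an element core 247 bases and 2 GC boxes 169 and 153 bases before the start. Psmd1 is not printed either, and most of its window of 250 bases lies after the gene's first base in GENCODE M21. That window holds none of the 3 motifs. Counted over the full 250 bases before the RefSeq start, the element core is in 1 of the 4 lower genes and in 2 of the 3 higher ones. Among the 41 proteasome genes with a RefSeq window, over the 300 bases from 250 before to 50 after the start, 14.6% held the element core, against 13.99% of the 27025 genes in the promoter table. The CCAAT box was in 36.6% against 41.1%, and the GC box in 56.1% against 38.2%. By class, a GC box was in 5 of 11 core genes, 10 of 14 cap genes and 4 of 6 assembly factor genes with a window. These matches describe the letters only.

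The targeted gene was checked first: the longest Setd1a transcript stood at 0.767, 0.959 and 0.764 TPM in the control libraries and at 0.407, 0.328, 0.374 and 0.432 TPM in the shKmt2f libraries. The groups did not overlap, the shKmt2f mean was 46.4% of the control mean, and the exact permutation test (two-sided) gave p = 0.0286, the smallest that 3 against 4 libraries allow. This transcript was under 1 TPM in every library. Its log2 difference was -0.94 with a pseudocount of 0.1 and -0.40 with a pseudocount of 1. Over all 10857 genes tested, 1452 rose and 444 fell (limma, adjusted p under 0.05), so 76.6% of the calls were higher. That share was 57.7% with median-ratio scaling, 46.0% after correction for GC content and 45.9% after correction for GC content and transcript length. The count rested on single libraries, with 283 calls without control replicate 1, 370 without control replicate 3, 354 without shKmt2f replicate 1, 411 without shKmt2f replicate 2, 790 without shKmt2f replicate 3, 682 without shKmt2f replicate 4 and 2949 without control replicate 2. Cell type markers moved with the groups. The summed level of 12 retinal neuron markers lay between 413 and 733 TPM in control libraries, with control replicate 2 the highest, and between 1160 and 1518 TPM in shKmt2f libraries, with 6 of 10 tested markers higher. The 10 retinal progenitor markers summed to between 827 and 1055 TPM in control and between 720 and 799 TPM in shKmt2f libraries, with 3 of 10 lower. Markers of other cell types overlapped between the groups: endothelium (2 of 7 listed markers measured, 61.8 to 104 against 72.3 to 108 TPM), pigment epithelium (3 of 6, 62.7 to 88.4 against 71.3 to 115 TPM, almost all of it Rlbp1), and microglia (C1qa alone of 9), pericytes (2 of 4), lens (1 of 6) and astrocytes (3 of 4), each with a sum under 2 TPM in every library. The part of cell composition in the results below was not tested, and fewer cells of a type and less RNA per cell cannot be told apart in such samples.

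Among the proteasome genes, 7 passed the test, 4 lower and 3 higher in the shKmt2f libraries. Psmb3 and Psmb5 of the beta ring, the assembly factor Psmg1 and the PA28 subunit Psme1 fell. The cap subunits Psmc6, Psmd1 and Psmd12 rose. Fold changes are on the scale of log2(TPM + 1), shKmt2f minus control, and p comes from limma, adjusted over all genes tested. That is 4 genes lower of 45 tested (8.89%), where 4.09% of all genes tested were lower, and 3 higher (6.67%), where 13.4% of all genes were higher. Without adjustment, 16 of the 45 had a limma p under 0.05. In 14 genes every shKmt2f library lay below every control library (9.28% of all genes tested did so), and in 5 every shKmt2f library lay above (20.7% of all genes). These calls depended on which libraries were used: none of the 7 held without control replicate 1, without control replicate 3 or without shKmt2f replicate 1, and only that of Psmb3 held without shKmt2f replicate 2, 3 or 4. Without control replicate 2, 16 members passed, 10 lower and 6 higher, the 7 among them.

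**Figure D1:**
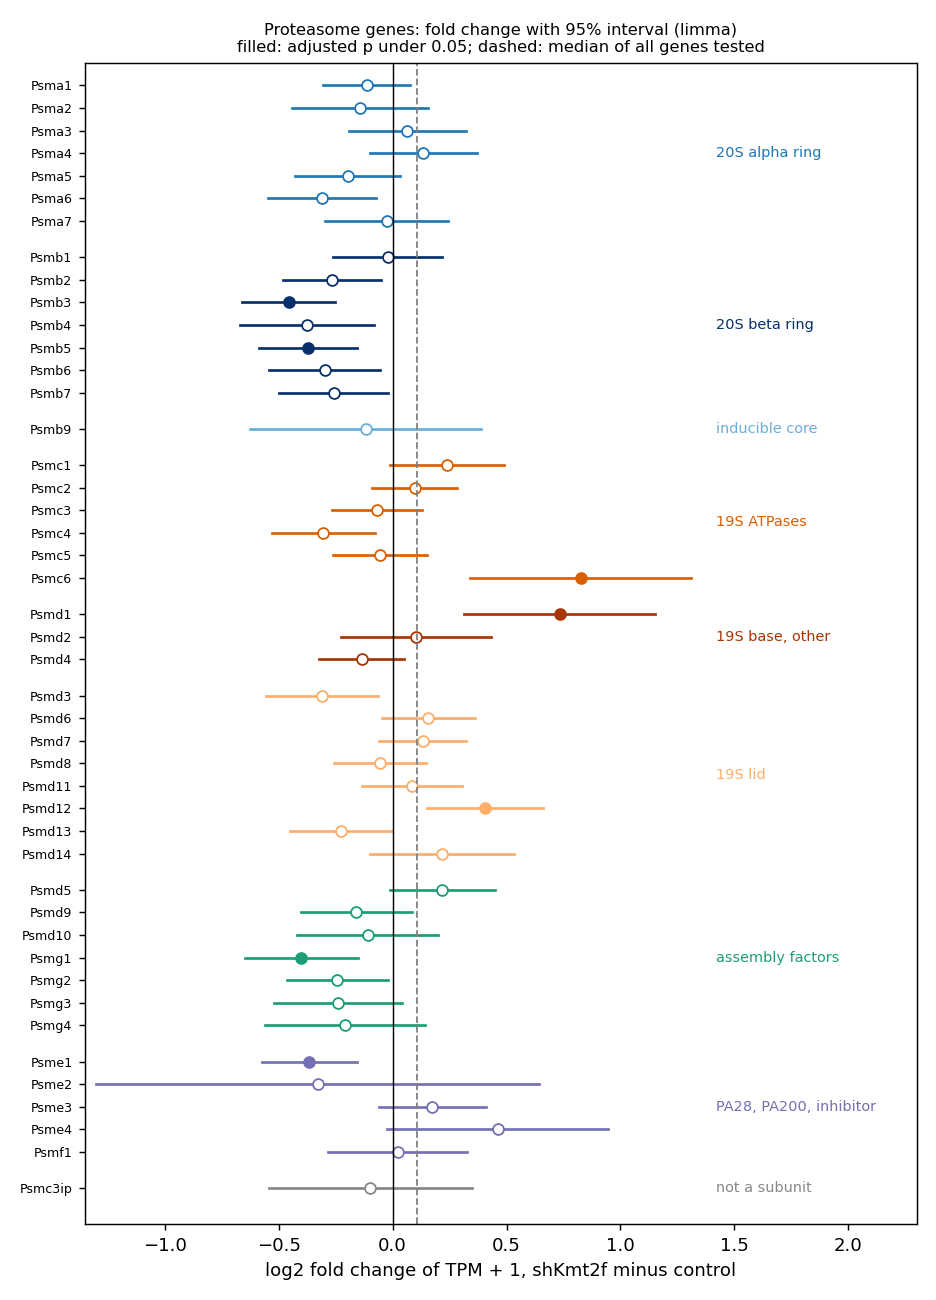
Log2 fold change of TPM + 1 (x axis, shKmt2f minus control, limma, 95% interval as bars) for the 45 proteasome genes tested, one gene per line, grouped and coloured by role. Filled points passed the adjusted p of 0.05, open points did not, and the dashed line marks the median of all 10857 genes, 0.11; the 7 beta-ring genes all lie left of 0, while the cap genes spread to both sides.

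In the beta ring 2 of 7 genes fell and none rose, where 4.09% of all genes tested fell and 13.4% rose. All 7 had a negative log2 fold change, as they did under each alternative that dropped no library (6 of 7 without control replicate 1 or without shKmt2f replicate 2). The median was -0.30 against 0.11 over all genes tested. After correction for GC content it was -0.41 with 1 gene lower, against -0.53 with 3 lower in the alpha ring. After correction for GC content and transcript length it was -0.25 with 1 lower, against -0.39 with 2 lower in the alpha ring. In 6 of the 7 beta-ring genes the groups did not overlap, with shKmt2f lower, as in 9.28% of all genes tested. Psmb3 (beta-3, a structural subunit; chromosome 11 from 97703399 to 97713500) stood at 310.1, 260.4 and 296 TPM in control replicates 1 to 3 and at 207, 213, 214 and 205 TPM in shKmt2f replicates 1 to 4. The shKmt2f libraries lay within a narrow band well below the lowest control, and the log2 fold change was -0.46 with an SE of 0.09 (limma adjusted p = 0.0179). Psmb3 passed the threshold under each of the 11 alternatives that dropped no library. In 1 of these, the replicate block, shKmt2f replicate 4 has no control of its number and adds nothing to the fold change. The log2 fold change of Psmb3 was reduced to -0.25 (limma adjusted p = 0.0448) after correction for GC content and transcript length. Its adjusted p reached 0.0621 without control replicate 1, 0.0585 without control replicate 3 and 0.0582 without shKmt2f replicate 1.

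Of the 3 catalytic subunits, Psmb5 fell and the other two did not pass the test. Psmb5 (beta-5; chromosome 14 from 54614119 to 54618022, minus strand) was at 275, 252 and 290.4 TPM in the control libraries and 202, 194, 222 and 223 TPM in the shKmt2f libraries. Its groups did not overlap, with shKmt2f replicates 1 and 2 the lowest, and the log2 fold change was -0.37 with an SE of 0.10 (limma adjusted p = 0.0328). After correction for GC content and transcript length it was -0.12 (adjusted p = 0.296), and with the replicate number as a block the adjusted p was 0.0519. A processed pseudogene with 98.9% identity to Psmb5 was listed at 119.7 TPM in the controls and 95.3 TPM in shKmt2f libraries on average, so reads may be split between them; with its TPM added the adjusted p was 0.0485. Psmb6 (beta-1) had the highest level of coding transcripts in the beta ring. It was at 452, 365 and 411 TPM in the controls and 328, 294, 354 and 352 TPM in shKmt2f libraries (log2 fold change -0.30, limma adjusted p = 0.0844). Psmb7 (beta-2) was at 124, 100.2 and 109 TPM and 91.5, 84.4, 98.1 and 96.1 TPM (log2 fold change -0.26, limma adjusted p = 0.122). In both genes the highest shKmt2f library stood just below the lowest control, control replicate 2, and neither passed.

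Of the other beta-ring genes, Psmb2 had a log2 fold change of -0.27 (means 273 and 226 TPM, limma adjusted p = 0.0848) and Psmb1 of -0.02 (104 and 102 TPM). The coding transcript of Psmb4 was listed at 12.9 TPM in the controls and 9.72 TPM in shKmt2f libraries (limma adjusted p = 0.0743), far below the rest of its ring. Its coding rows held 2.49% of the gene's TPM, and 2 short transcripts with a retained intron held 67.1% and 30.2%; summed over all transcript types Psmb4 passed the threshold (adjusted p = 0.036).

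**Figure D2:**
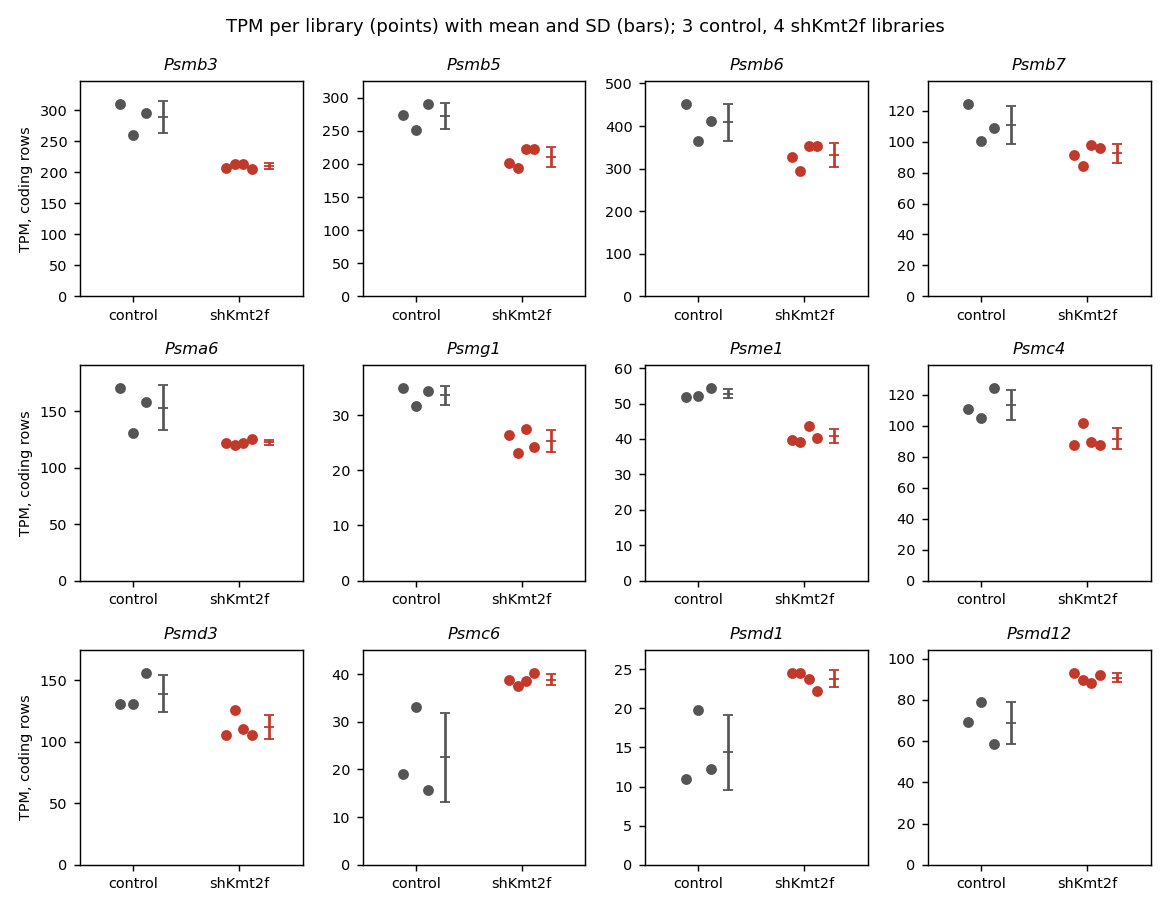
TPM summed over coding transcripts (y axis, from 0) in each of the 3 control (grey) and 4 shKmt2f (red) libraries for 12 proteasome genes, with the mean and SD beside the points. All 12 genes shown are among the tested members whose groups do not overlap (14 lower and 5 higher of 45 tested). Psmb3 is at 205 to 214 TPM in shKmt2f against 260.4 to 310.1 TPM in control libraries. In Psmc6, Psmd1 and Psmd12 control replicate 2 is the control library nearest to the shKmt2f libraries.

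In the alpha ring none of the 7 genes passed the test, 5 had a negative and 2 a positive log2 fold change, and the median was -0.11. That median was 0.01 without control replicate 1, and -0.53 after correction for GC content, where 3 alpha-ring genes passed as lower (Psma1, Psma3 and Psma6). Psma6 (alpha-1) was the gene with groups apart. It was at 170.3, 131 and 158 TPM in the controls and 122, 121, 121 and 125 TPM in shKmt2f libraries (log2 fold change -0.31, limma adjusted p = 0.0690). Its coding rows held 47.5% of its TPM in control and 41.7% in shKmt2f libraries. Its log2 fold change lay between -0.58 and -0.13 under the 11 alternatives that dropped no library, and it passed in 2. Summed over all transcript types, no alpha-ring gene passed and the lowest log2 fold change of the ring was -0.23. Psma5 (alpha-5) was at 119, 99.97 and 107 TPM in the controls and 94.5, 84.7, 101 and 97.6 TPM in shKmt2f libraries (log2 fold change -0.20, limma adjusted p = 0.210), and its groups overlapped through shKmt2f replicate 3. Psma1, Psma2 and Psma7 had log2 fold changes of -0.11, -0.14 and -0.03, and Psma4 of 0.13 (limma adjusted p from 0.38 to 0.91). Psma3 (alpha-7) had the highest level of all members, 799 ± 96.3 TPM in the controls and 836 ± 84.6 TPM in shKmt2f libraries (SD). That level is uncertain, since almost all of it came from a coding transcript of 312 bases and a processed pseudogene identical to part of Psma3 held a further 190.0 and 198 TPM; its log2 fold change was 0.07 as deposited and -0.39 (adjusted p = 0.045) after correction for GC content and transcript length.

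Inducible core subunits, which replace the standard catalytic ones in immune cells and after interferon, were close to the limit of the data. Psmb9 was at 0.863, 1.27 and 0.544 TPM in the controls and 0.323, 0.452, 1.20 and 1.09 TPM in shKmt2f libraries, with overlapping groups (log2 fold change -0.12, limma adjusted p = 0.753). Psmb8 was at 0.0211, 0.498 and 0 TPM in the controls and 0.0625, 0.0638, 0.632 and 0.0525 TPM in shKmt2f libraries, so that control replicate 2 and shKmt2f replicate 3 stood above the others of their groups. Psmb10 was at 1.11, 0.508 and 0.538 TPM in the controls and 0.494, 0.417, 0.555 and 0.753 TPM in shKmt2f libraries, from coding rows that held 3.84% of the gene's TPM. The standard subunits that they replace, Psmb6, Psmb5 and Psmb7, averaged 409, 272 and 111 TPM in control libraries. Psma8 of the testis-type core and Psmb11 of the thymus-type core averaged 0.0855 and 0.0683 TPM in the controls and 0.0836 and 0.0657 TPM in shKmt2f libraries.

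In the 19S cap 3 of 17 genes rose and none fell; the share higher, 17.6%, was near the 13.4% of all genes tested. Of the 17, 10 had a positive and 7 a negative log2 fold change, and the median of 0.10 lay next to that of all genes tested, 0.11. In 5 the groups were apart with shKmt2f higher and in 4 with shKmt2f lower, where 20.7% and 9.28% of all genes tested were. Psmc6 (Rpt4, an ATPase; chromosome 14 from 45329788 to 45349705) was at 18.9, 33.1 and 15.6 TPM in the controls and 38.8, 37.4, 38.5 and 40.3 TPM in shKmt2f libraries. Control libraries were spread widely, with replicate 2 close to the shKmt2f libraries, and the log2 fold change was 0.83 with an SE of 0.22 (limma adjusted p = 0.0337). Its transcript has the lowest GC content of the tested members, 37.0%, and after correction for GC content the log2 fold change was -0.01 (adjusted p = 0.956). The other 2 ATPase genes with groups apart were Psmc4 (Rpt3), lower at 87.6, 101, 89.7 and 87.6 TPM in shKmt2f against 111, 105.2 and 124 TPM in control libraries (log2 fold change -0.30, limma adjusted p = 0.0669), and Psmc2, at 76.7 and 82.2 TPM (adjusted p = 0.444). Psmc1, Psmc3 and Psmc5 overlapped, with log2 fold changes of 0.24, -0.07 and -0.05 and means in control libraries of 87.7, 152 and 111 TPM.

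Psmd1 (Rpn2, a scaffold of the base; chromosome 1 from 86064387 to 86139151) was at 11.0, 19.8 and 12.3 TPM in the controls and 24.6, 24.6, 23.8 and 22.3 TPM in shKmt2f libraries. As in Psmc6, control replicate 2 was nearest to the shKmt2f libraries, and the log2 fold change was 0.73 with an SE of 0.19 (limma adjusted p = 0.0318). After correction for GC content and transcript length it was 0.39 (adjusted p = 0.0780). Psmd4 (Rpn10, a ubiquitin receptor) was lower in every shKmt2f library, at 108, 109 and 115 TPM in the controls and 101, 102, 97.8 and 102 TPM in shKmt2f libraries, a difference that did not pass (log2 fold change -0.14, limma adjusted p = 0.285). Psmd2 (Rpn1), the other scaffold of the base, averaged 155 ± 33.5 TPM in the controls and 164 ± 13.9 TPM in shKmt2f libraries (log2 fold change 0.10, 95% interval -0.23 to 0.43).

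In the lid, Psmd12 (Rpn5; chromosome 11 from 107479484 to 107504362) rose. It was at 69.4, 78.8 and 58.4 TPM in the controls and 93.2, 89.9, 88.2 and 91.8 TPM in shKmt2f libraries (log2 fold change 0.40 with an SE of 0.11, limma adjusted p = 0.0404). Every shKmt2f library was above every control, and the difference was 0.07 (adjusted p = 0.714) after correction for GC content and 0.26 (adjusted p = 0.214) with median-ratio scaling. Psmd3 (Rpn3), another lid subunit, had lower values in every shKmt2f library, at 131, 131 and 156 TPM in the controls and 106, 126, 110.2 and 106 TPM in shKmt2f libraries (log2 fold change -0.31, limma adjusted p = 0.0771), without passing. Psmd13 (Rpn9), with the highest listed level of the cap and groups apart as well, averaged 341 and 290.2 TPM (adjusted p = 0.142), of which a coding transcript of 288 bases held 65.6% of the gene's TPM. Psmd7 (Rpn8) had groups apart with 92.4 TPM in the controls and 101 TPM in shKmt2f libraries (adjusted p = 0.314). Psmd14 (Rpn11), the enzyme that removes the ubiquitin chain, had the lowest level of coding transcripts in the lid, 51.0 and 58.5 TPM (log2 fold change 0.22, 95% interval -0.10 to 0.53). These held 29.0% of the gene's TPM. Psmd6, Psmd8 and Psmd11 had log2 fold changes of 0.16, -0.05 and 0.09, and none passed.

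Of the 7 assembly factors 1 fell and none rose, where 4.09% of all genes tested fell and 13.4% rose. In 6 the log2 fold change was negative, and the median was -0.21. Psmg1 (PAC1), which with Psmg2 (PAC2) forms the chaperone pair that starts the alpha ring, was at 34.9, 31.7 and 34.3 TPM in the controls and 26.4, 23.1, 27.4 and 24.2 TPM in shKmt2f libraries (log2 fold change -0.40 with an SE of 0.11, limma adjusted p = 0.0378). Its partner Psmg2 was at 60.5, 55.7 and 54.0 TPM in the controls and 46.2, 45.2, 48.2 and 51.6 TPM in shKmt2f libraries (log2 fold change -0.24, limma adjusted p = 0.116), so that in both partners every shKmt2f library was below every control. Psmg3 and Psmg4 (PAC3 and PAC4) had log2 fold changes of -0.24 and -0.21 with overlapping groups. Of the chaperones of the cap's base, Psmd9 (p27), with the highest level of this class in control libraries, averaged 87.8 and 78.5 TPM, Psmd10 (gankyrin), with the lowest, 23.2 and 21.2 TPM, and Psmd5 (S5b), the highest in shKmt2f libraries, 73.0 and 85.0 TPM, with a log2 fold change of 0.22 (limma adjusted p = 0.166).

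The alternative caps open the core without ubiquitin or ATP. Psme1 (PA28 alpha; chromosome 14 from 55578123 to 55581529) fell, from 51.9, 52.1 and 54.3 TPM in control to 39.8, 39.2, 43.8 and 40.3 TPM in shKmt2f libraries (log2 fold change -0.36 with an SE of 0.09, limma adjusted p = 0.0322). The groups were well apart, yet coding rows held 37.2% of its TPM, and summed over all transcript types it did not pass (log2 fold change -0.28, adjusted p = 0.0934); nor did it after correction for GC content and transcript length (-0.17, adjusted p = 0.184). Psme4 (PA200) was at 3.99, 7.93 and 4.07 TPM in the controls and 7.26, 8.15, 6.89 and 7.29 TPM in shKmt2f libraries (log2 fold change 0.46, limma adjusted p = 0.166), control replicate 2 lying among the shKmt2f libraries. Psme2 (PA28 beta) averaged 4.98 and 4.24 TPM, the lowest of this class by coding rows, which held only 1.04% of its TPM. Psme3 (PA28 gamma), the highest by coding rows, averaged 59.0 and 66.5 TPM, and Psmf1, the inhibitor PI31, 22.0 and 22.3 TPM. Psmc3ip, which is no subunit, was at 5.55, 5.72 and 3.35 TPM in the controls and 3.77, 4.09, 4.32 and 5.52 TPM in shKmt2f libraries (limma adjusted p = 0.771).

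Set side by side, the 14 core genes had a median log2 fold change of -0.23 (2 fell, none rose), the 17 cap genes of 0.10 (none fell, 3 rose) and the 7 assembly factors of -0.21 (1 fell, none rose), against 0.11 over all genes tested (4.09% fell, 13.4% rose). Relative to all genes the medians were -0.33, -0.01 and -0.31. The core median was negative under all 18 alternatives, between -0.41 and -0.15, while that of the cap turned to -0.04 with median-ratio scaling, which shifted the median of all genes by -0.12, and to -0.08 after GC correction, and that of the assembly factors was -0.01 after correction for GC content and transcript length. Centred per gene, the core median was 0.27, 0.01 and 0.11 in control replicates 1 to 3 and -0.09, -0.19, -0.03 and -0.04 in shKmt2f replicates 1 to 4. The cap was at -0.08, 0.01 and 0.07 in control and at 0.03, 0.06, -0.02 and 0.02 in shKmt2f libraries, so its groups overlapped. The core minus the cap was 0.35, 0.002 and 0.04 in control and -0.13, -0.25, -0.004 and -0.06 in shKmt2f libraries: the groups did not overlap, by a margin of less than 0.01, and control replicate 1 stood far from control replicates 2 and 3. No test was made of these medians, since the members and classes were chosen with results known.

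**Figure D3:**
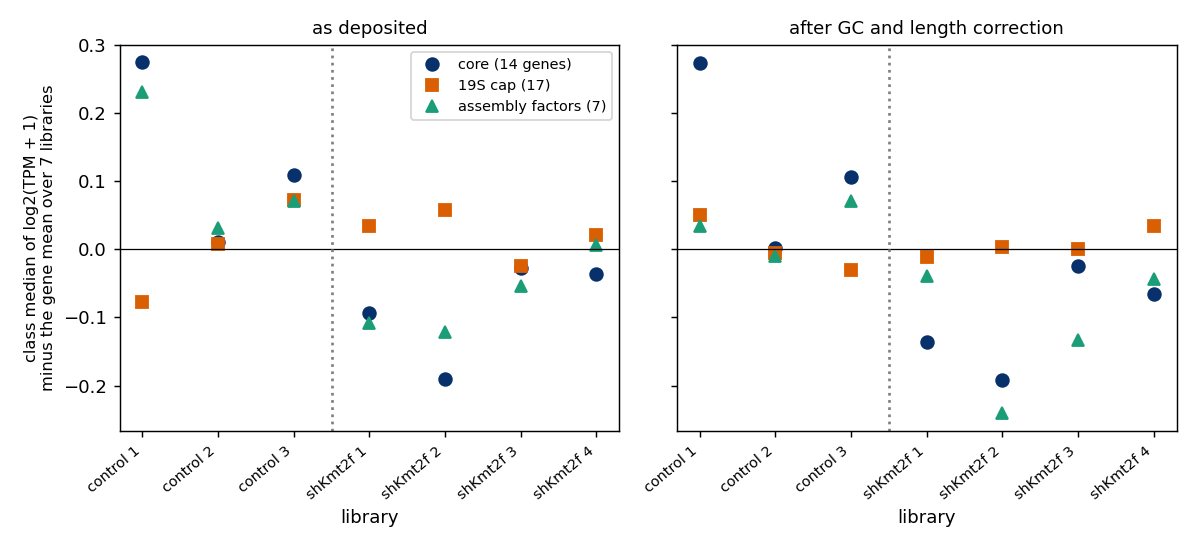
Median over the genes of each class of log2(TPM + 1) minus the gene's mean over the 7 libraries (y axis, log2 units), per library (x axis), as deposited (left) and after correction for GC content and transcript length (right). Core medians (circles) of the 3 control libraries lie above those of the 4 shKmt2f libraries in both panels, control replicate 1 being the highest at 0.27, while cap medians (squares) overlap between the groups on the left.

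The classes also differed in transcript makeup. Coding transcripts had a median length of 1085 bases in core genes, 1514 bases in cap genes and 1041 bases in assembly factors, against 2241 bases over all genes tested, and a median GC content of 48.9%, 49.7% and 51.5% against 50.6%. Across the 45 tested members the rank correlation of the log2 fold change was 0.56 with length and -0.57 with GC content; across 10854 genes it was 0.36 and -0.51. Within the 14 core genes it was 0.24 with length and -0.73 with GC content, and within the 17 cap genes 0.62 and -0.86. Genes of a library share its depth and base composition and are not independent, so these values are descriptions. Psmc6, Psmd1 and Psmd12, which rose, have coding transcripts of 2234, 3112 and 1516 bases. Psmb3, Psmb5, Psme1 and Psmg1, which fell, have coding transcripts of 766, 709, 599 and 1044 bases. After correction for GC content and length, 5 members passed, all lower: Psma6, Psmg1, Psmg2, Psma3 and Psmb3. What part a bias of library preparation and what part a change in the cells has in this relation was not tested.

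**Figure D4:**
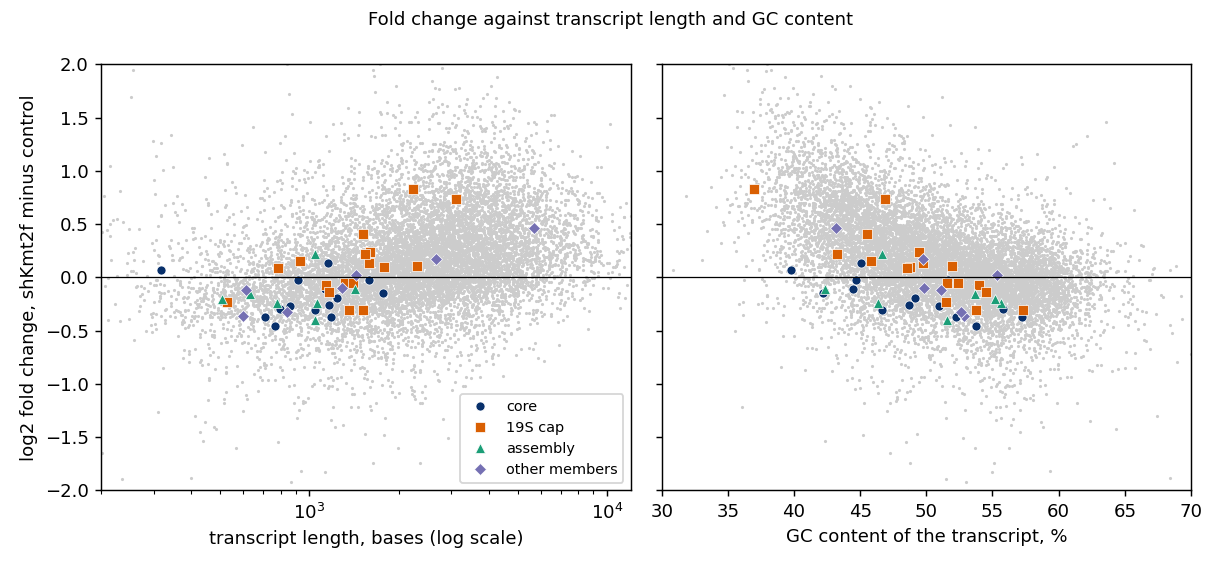
Log2 fold change (y axis, shKmt2f minus control) against the length of the coding transcripts in bases (left, log scale) and their GC content in percent (right) for all genes tested (grey) and for the proteasome genes by class (coloured); 65 and 19 of 10854 genes fall outside the axes. Among members as among all genes, points of longer and GC-poorer transcripts lie higher, with Psmc6 (37.0% GC) at the top of the members.

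Which transcripts carry a gene's TPM bears on these levels. Coding rows held 42.8% to 46.9% of the TPM of a library, and in 23 of the 49 members they held under 80% of the gene's TPM. The share was lowest in Psme2 (1.04%), Psmb4 (2.49%) and Psmb10 (3.84%), followed by Psmc6 (11.8%), Psma7 (13.3%), Psmd1 (14.1%) and Psma4 (20.8%, means 124 and 136 TPM). In Psma7 (means 134 and 131 TPM in control and shKmt2f libraries), transcripts of 292 and 288 bases that are not coding held 44.0% and 40.7%. In the middle of the range lay Psmd4, Psmd14, Psmc1 (shKmt2f mean 103 TPM), Psmc4, Psmc3 (145 TPM), Psme1, Psma6, Psmd2 and Psmc3ip. Psme4, Psma5, Psmd11 (means 163 and 173 TPM), Psme3, Psmb8, Psmd8 (153 and 147 TPM) and Psmf1 complete the 23. Summed over all transcript types, 7 members passed as before, with Psmb4 in and Psme1 out. Pseudogene copies took TPM in 7 members and in none of them more than the coding rows.

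**Figure D5:**
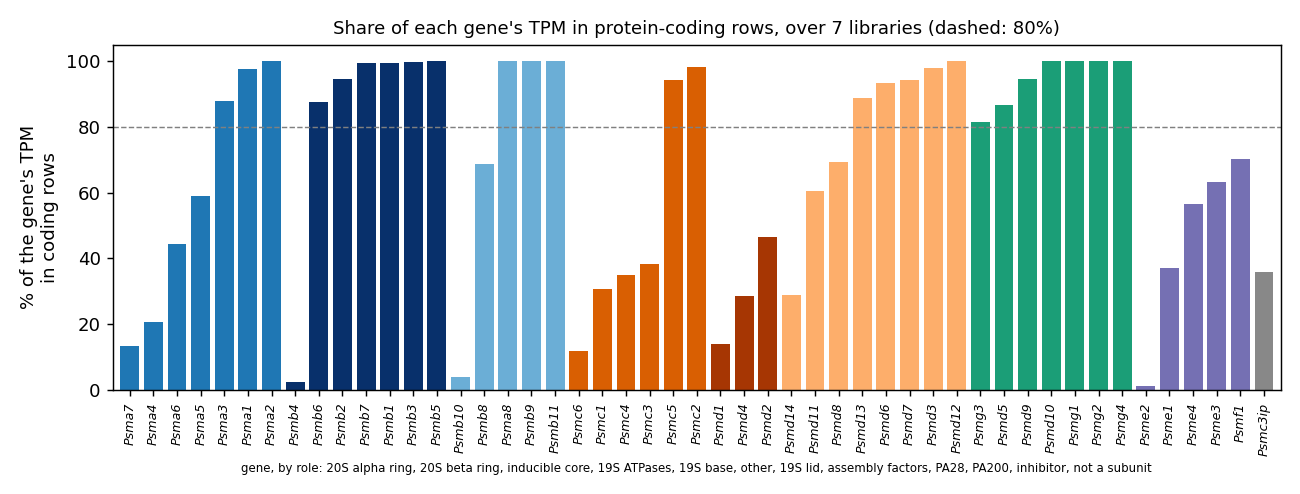
Share of each proteasome gene's summed TPM held by protein-coding transcripts (y axis, percent, from 0) over the 7 libraries, one bar per gene (x axis), coloured and ordered by role; the dashed line marks 80%. Assembly factors are all above the line, while Psmb4 (2.49%) and Psme2 (1.04%) are nearly at 0.

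The authors' deposited table lists a test per transcript from sleuth. In it, 7 of the 90 coding transcripts of proteasome genes had a q-value under 0.05 (7.78%), 5 lower and 2 higher, where 7.64% of all 29381 coding transcripts did. The lower ones in the authors' deposited table were the Psmb3 transcript (effect -0.40 on a natural log scale, q = 0.00061), the 622-base Psmb5 transcript (q = 0.0059), the Psmg1 transcript (q = 0.0147), the 666-base Psmd3 transcript (q = 0.0148) and the 1244-base Psmc4 transcript (q = 0.0205). The higher ones were those of Psmd1 (effect 0.45, q = 0.0212) and the 4397-base Psmd5 transcript (effect 0.37, q = 0.0232). Psmc6, Psmd12 and Psme1, called by limma above, had no coding transcript that passed in the authors' deposited table (lowest sleuth q = 0.103, 0.115 and 0.063). Nor did the 899-base Psmb5 transcript pass (sleuth q = 0.123). Of the 129 transcripts of other types, 3 passed in the authors' deposited table (2.33%, where 3.13% of all 26023 such transcripts did): a retained-intron transcript each of Psmb4 and Psmc4, lower, and one of Psmf1, higher. The Psmf1 transcript, of 2667 bases, was at 0.618, 0.820 and 0.5002 TPM in the controls and at 1.92, 1.80, 1.46 and 2.23 TPM in shKmt2f libraries, while the coding rows of Psmf1 stood at 22.0 and 22.3 TPM on average. It was singled out after its values were seen.

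Other genes of the pathway were read from lists, whose counts stand beside the 13.4% of all genes tested that were higher and the 4.09% that were lower. Of 6 proteasome genes named outside the Psm scheme none fell and 1 rose (16.7%): Usp14, a deubiquitinase bound to the cap, at 20.9, 37.2 and 24.0 TPM in the controls and 43.2, 42.0, 41.5 and 41.6 TPM in shKmt2f libraries (log2 fold change 0.65, limma adjusted p = 0.038). Pomp, the chaperone that completes the core, was at 245, 179 and 198 TPM in the controls and 164, 150.3, 176 and 168 TPM in shKmt2f libraries. Every shKmt2f library was below every control, as in 6 of the 7 beta-ring genes, but Pomp did not pass (log2 fold change -0.32, limma adjusted p = 0.095). Of 12 tested regulators 2 rose, also 16.7% and so near the share of all genes: Zfand5, an activator of the 26S particle (185 to 329 TPM, adjusted p = 0.014), and Ngly1, which processes Nfe2l1 (15.4 to 26.3 TPM, adjusted p = 0.035). Nfe2l1 itself averaged 20.7 and 27.8 TPM with overlapping groups (adjusted p = 0.17). Of 7 ubiquitin and E1 enzyme genes 2 rose (28.6%), Uba6 (1.62 to 4.08 TPM, adjusted p = 0.018) and Uba3 (31.1 to 55.4 TPM, adjusted p = 0.026). The list as a whole summed to 4923, 4935 and 4803 TPM in control libraries. It summed to 4331, 4730, 4116 and 4140 TPM in shKmt2f libraries, all lower than the controls. After correction for GC content and length there was 1 regulator higher and 1 lower. There was no call among the ubiquitin and E1 enzyme genes or the genes named outside the scheme.

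The lid shares its domain structure with the COP9 signalosome and eIF3, and 17 genes of these were tested. The 3 higher (17.6%) are near the 13.4% of all genes, and the 2 lower (11.8%) stand beside 4.09%. The lower ones were Cops6 (192 to 136 TPM, limma adjusted p = 0.016) and Gps1 (101 to 78.6 TPM, adjusted p = 0.044), and the higher ones Cops2 (8.77 to 21.7 TPM, adjusted p = 0.042), Eif3a (15.7 to 25.3 TPM, adjusted p = 0.028) and Eif3e (55.4 to 87.5 TPM, adjusted p = 0.038). After correction for GC content and length 4 were lower and none higher. None of 13 shuttle and extraction factors passed, for example Ubqln1 (74.4 and 103 TPM, limma adjusted p = 0.067) and Faf2 (31.1 and 36.7 TPM, adjusted p = 0.12). None of 7 tested genes of the interferon response and antigen processing passed, with H2-D1 at 94.2 and 145 TPM (adjusted p = 0.23) and B2m at 58.2 and 99.6 TPM (adjusted p = 0.39), both highest in shKmt2f replicate 3, the library with the highest Psmb8. None of 7 genes of the chaperonin CCT passed, another ring complex, with Cct4 at 84.6 and 102 TPM (adjusted p = 0.11) and Cct7 at 3006 and 2706 TPM (adjusted p = 0.22).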

How the data were processed

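RNA of 7 libraries (3 control, 4 shKmt2f) was read from 1 deposited table each, with 55475 transcript rows, 71 of them without a value. The authors deposited TPM, a length-scaled share of transcripts; Salmon 0.11.3, sleuth 0.30.0 and build GRCm38.p6 are named in the submitters' processing notes. Per the file headers, each table also repeats the authors' p-values, q-values and an effect size, taken here as natural log. TPM totals were 991445 to 992309 per library; TPM keeps no depth, so depth and counting error are unknown.

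Protein-coding rows were summed per gene, and every gene that reached 1 TPM in 3 or more libraries was tested with limma 3.58.1 (R 4.3.3) on log2(TPM + 1), with a trended and robust prior and the group as the only term; p was adjusted by Benjamini-Hochberg over all 10857 genes, with a threshold of 0.05. Fold changes are on the log2(TPM + 1) scale and understate those of low genes. Setd1a was tested on log2(TPM + 0.1) by exact permutation over all 35 splits. Length, GC content and positions come from GENCODE M21 (GRCm38), and pseudogene copies from blastn 2.17.0 (90% identity over 50% of the pseudogene). The test was checked on simulated data with independent noise per gene and library. That check cannot show how the test behaves where the genes of a library shift together.

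Values in every library are given for members past the threshold, the catalytic and inducible beta subunits and, per role, the 2 members with the smallest adjusted p; group means for the highest and lowest member of a role and for those with under 80% of TPM in coding rows; and per pathway list up to 4 passing genes or 2 as values. The members and all lists were chosen with earlier results of these data known. Erythroid markers were not analysed here. Alternatives were median-ratio scaling, rescaling coding rows to a common total, other filters, a pseudocount of 0.1, all transcript types, pseudogene copies added, loess correction (span 0.3) for GC content and for GC content and length, the replicate number as a block, and leaving out each library.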

Additional observations from a re-analysis of the deposited data

Results flagged for a closer look

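In 4 of the 49 proteasome genes, 1 of the 4 shKmt2f libraries stood far from the other 3, as a gap that takes up most of the group's range; chance gives such a flag in about 1 in 20 groups. Psmb2 was lowest in shKmt2f replicate 2, at 213 TPM, where the others were at 229 to 231 TPM. Psmg4 was lowest in the same library, at 25.8 TPM against 37.5 to 38.1 TPM, and Psmc4 highest in it, at 101 TPM against 87.6 to 89.7 TPM. Psmb8 was highest in shKmt2f replicate 3, at 0.632 TPM, where the others were at 0.0525 to 0.0638 TPM.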

How the results depend on the processing

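Psmb3 kept its direction under all 18 alternatives and passed in 15, and the other 6 called members passed in 5 (Psmd12) to 10 (Psmg1 and Psmd1). With median-ratio scaling 7 members were lower and 1 higher (cap: 2 lower, 1 higher), 867 of all genes were lower, and the medians of core, cap, assembly factors and all genes were -0.37, -0.043, -0.35 and -0.018. With coding rows rescaled to a common total, 2 cap genes were lower and the cap median was 0.041. With no filter, 1 member, of the cap, was higher. GC correction gave 7 members lower (4 core, 2 assembly factors) and 1, of the cap, higher, 780 genes lower and 664 higher, and medians of -0.41 (core), -0.082 (cap) and -0.0092 (all genes); 9 of the 45 tested members turned direction, all to negative, Psmc6 (-0.0098) and Psme4 (-0.030) among them. Correction for GC content and length gave no member higher, in the cap or elsewhere (0), 2 assembly factors lower, 801 genes lower and 679 higher, and medians of 0.012 (cap), -0.0050 (assembly factors) and 0.00029 (all genes); 15 members turned, among them Psmb9 (0.015), Psmc6 (-0.020), Psmd4 (0.025) and Psme4 (-0.14). The same correction on all transcript types, chosen after seeing the data, gave 3 members past the threshold and 0 higher (cap: 0), 763 genes lower and 672 higher, and medians of -0.017 (cap), 0.010 (assembly factors) and -0.0012 (all genes); 14 members turned, among them Psmb9 (0.0063), Psmc6 (-0.14) and Psme4 (-0.17). Of the members that turned, Psma3 alone passed, as lower, under each of these 3 corrections. Median-ratio scaling turned 7 members to negative, and rescaled coding rows and the replicate block 1 each, none of which passed. The cause of these changes was not tested.

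The replicate numbers showed no pairing of the libraries. Correlations were 0.06, 0.07 and 0.09 between same-numbered libraries, and each control library was closer, at 0.11, to a shKmt2f library of another number. With the replicate block, 3 members passed, 1 lower (Psmb3, the 1 core gene) and 2 higher (Psmc6 and Psmd1), with 0 assembly factors lower. No control library has the number of shKmt2f replicate 4, so the block gave the same fold changes as leaving that library out.

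Without 1 library at a time, between 0 and 16 members passed (0 to 10 lower, 0 to 6 higher; core 0 to 6 lower, cap 0 to 5 higher and up to 1 lower, assembly 0 to 2 lower), the cap median lay between 0.0093 and 0.11, and between 283 and 2949 genes passed, 152 to 2400 higher and 121 to 549 lower, of which the lowest counts came without control replicates 1 and 3. Between 0 and 6 members turned, the most without control replicate 1 and none of them past the threshold; Psmb9 (-0.26 to 0.0084) and Psmc3ip (-0.30 to 0.013) each turned once. The Setd1a difference stayed between -0.99 and -0.84, with p of 0.0667 to 0.10, the smallest that 6 libraries allow. TPM holds no depth, so differences of members under 1 TPM could not be resolved.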
